A study of Salix viminalis with 12 samples.

Results

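Thioredoxins, glutaredoxins, peroxiredoxins and ascorbate peroxidases were followed in the root transcriptome of *S. viminalis*, the basket willow. The members were the contigs whose description, in the annotation of the assembly, contained the word thioredoxin, glutaredoxin, peroxiredoxin or ascorbate peroxidase, irrespective of case. A contig is here an assembled coding sequence. The rule found 268 contigs among the 86843 of the assembly. They carried the codes of 80 Arabidopsis genes, which were counted without the suffix that marks the gene model. All of these were among the 64173 contigs with an Arabidopsis code, of which the members made up 0.418%.

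The libraries were made from roots of cuttings of a single individual, with 3 libraries per group. CT plants (temperate) and CC plants (cold acclimated) grew in control soil, and MT plants (temperate) and MC plants (cold acclimated) in soil with added Cd (1.5 ppm), Cu (175 ppm), Ni (30 ppm) and Zn (500 ppm). After 40 days, CC and MC plants were kept at 7/5 °C (day/night) for 4 weeks and CT and MT plants at 23/20 °C, although the sample labels give 4 °C and 22 °C. The table analysed here describes 1 assembly built from the 12 libraries together, holds 0 columns with a value per library, and therefore gives neither the depth of a library nor the level of a gene in CT, CC, MT or MC. What follows is which redox genes were assembled from these roots and in how many contigs. A number of contigs is not a level of expression, the counts have no replicates, and no test was made on them.

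Thioredoxins are small proteins that reduce disulfide bonds of other proteins through a pair of cysteines in their active site. They are reduced in turn by thioredoxin reductases, which take electrons from NADPH or, in plastids, from ferredoxin. Glutaredoxins share the thioredoxin fold but are reduced by glutathione, and some of them carry iron–sulfur clusters. Peroxiredoxins and ascorbate peroxidases both remove hydrogen peroxide. The former use cysteines that thioredoxins or glutaredoxins reduce, and the latter use a haem group and ascorbate. Together with glutathione reductase and the enzymes that recycle ascorbate, they form the part of the antioxidant system that links peroxide removal to the thiol pool of the cell.

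The 5 genes with the most contigs came from different branches. AT2G47470 (PDI11), described as a thioredoxin family protein, had 19 contigs, AT4G35000 (APX3) had 13 contigs, AT1G48130 (PER1) and AT3G08710 (TH9) had 10 contigs each, and AT3G15360 (TRX-M4) had 9 contigs. These 5 genes held 61 contigs, which was 22.8% of the members. A single contig was listed for 21 genes, 2 contigs for 20 genes, 3 contigs for 14 genes, 4 contigs for 10 genes and 5 to 9 contigs for 11 genes. The median member gene had 2 contigs, and the quartiles were 1 and 4.

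The descriptions did not sort the members into families by themselves. The word thioredoxin stood in the descriptions of 181 contigs of 54 genes, glutaredoxin in those of 34 contigs of 17 genes, peroxiredoxin in those of 17 contigs of 3 genes and ascorbate peroxidase in those of 36 contigs of 6 genes. Thioredoxin superfamily protein was the most common description, with 69 contigs of 28 genes. No gene symbol was listed for 43 genes with 92 contigs. The genes were therefore ordered with a hand-written list of 85 Arabidopsis genes in 19 classes, which was drawn up from general knowledge of these families. Of the 80 member genes, 42 were on this list and had 163 contigs. Of the 28 genes described only by the superfamily, the list placed 7 genes (18 contigs) with the glutaredoxins, 2 genes (6 contigs) with the peroxiredoxins, 2 genes (4 contigs) with the thioredoxins and 1 gene (3 contigs) with relatives of the thioredoxins. The other 16 genes (38 contigs) were not on the list.

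**Figure D1:**
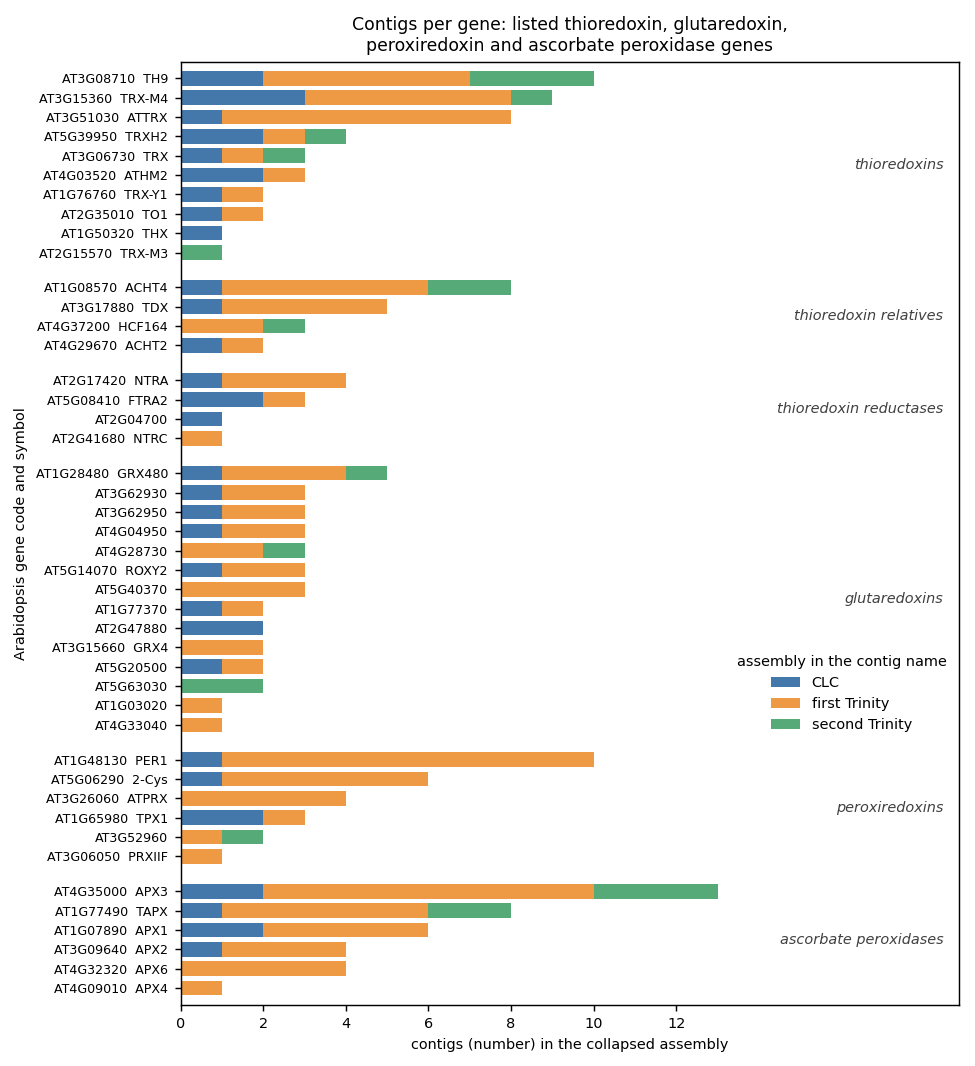
Contigs (number, x axis) of each member gene of the family list and of the 2 ferredoxin–thioredoxin reductase genes, grouped by family, with the assembly named in the contig shown by colour. APX3 has the longest bar with 13 contigs, and no glutaredoxin has more than 5 contigs.

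Thioredoxins of the classical types f, m, x, y, z, h and o were represented by 10 genes and 43 contigs. Type h thioredoxins act mainly in the cytosol. AT3G08710 (TH9), known in Arabidopsis to move between cells, had 10 contigs. By name, 2 of them were assigned to CLC, 5 to the first and 3 to the second Trinity assembly. AT3G51030 (ATTRX, thioredoxin H-type 1) had 8 contigs, and AT5G39950 (TRXH2) had 4 contigs. These were the only type h genes that the rule found, out of 11 on the list.

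Plastid thioredoxins were assembled from these roots as well. Among type m, AT3G15360 (TRX-M4) had 9 contigs, AT4G03520 (ATHM2) had 3 contigs and AT2G15570 (TRX-M3, also listed as GAT1) had 1 contig. TRX-M3 is known in Arabidopsis for its role in root meristems and in transport through plasmodesmata. AT3G06730, described as thioredoxin z and in Arabidopsis a partner of the RNA polymerase of plastids, had 3 contigs. AT1G76760 (TRX-Y1) had 2 contigs and AT1G50320 (THX, thioredoxin X) had 1 contig. Both types are known as electron donors of plastid peroxiredoxins. The mitochondrial type was represented by AT2G35010 (TO1, thioredoxin O1) with 2 contigs. Neither of the 2 genes of type f, which activate enzymes of carbon fixation in light, had a contig.

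Relatives of thioredoxins on the list had 18 contigs on 4 genes. AT1G08570 (ACHT4), one of the atypical Cys His-rich thioredoxins of plastids, had 8 contigs, and AT4G29670 (ACHT2) had 2 contigs. AT3G17880 (TDX), a thioredoxin joined to tetratricopeptide repeats that bind chaperones, had 5 contigs. AT4G37200 (HCF164), which in Arabidopsis serves the assembly of a cytochrome complex in thylakoids, had 3 contigs. Both genes described as WCRKC thioredoxins, a pair outside the list, had 3 contigs in all, 2 contigs for AT5G04260 (WCRKC2) and 1 contig for AT5G06690 (WCRKC1).

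Both routes that reduce thioredoxins had contigs. For the NADPH route, AT2G17420 (NTRA, NADPH-dependent thioredoxin reductase A) had 4 contigs, and AT2G41680 (NTRC), a plastid enzyme that joins a reductase to a thioredoxin domain, had 1 contig. For the ferredoxin route, AT2G04700, described as the catalytic beta chain of ferredoxin–thioredoxin reductase, had 1 contig and AT5G08410 (FTRA2), its variable subunit, had 3 contigs. The 4 reductase genes thus had 9 contigs, fewer than TH9 alone.

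Glutaredoxins on the list had 35 contigs on 14 genes, between 1 and 5 contigs per gene. They fall into 3 classes that are named after the active site or its typical sequence. The CPYC class, which holds the classical glutaredoxins that reduce disulfides with glutathione, had contigs for 5 of 6 genes. Of these, AT5G40370 and AT4G28730 had 3 contigs each, and AT1G77370, AT5G20500 and AT5G63030 had 2 contigs each. Of the CGFS class, which handles iron–sulfur clusters, the rule found AT4G04950 with 3 contigs and AT3G15660 (GRX4), a mitochondrial protein in Arabidopsis, with 2 contigs. GRX4 was the only member gene with contigs under more than 1 gene model, with 1 contig each for models 1 and 2.

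The CC class is specific to land plants and includes proteins that bind TGA transcription factors. It had 7 genes and 18 contigs. AT1G28480 (GRX480, roxy19), which in Arabidopsis links salicylic acid to jasmonate-responsive defence genes, had 5 contigs. AT5G14070 (ROXY2), known in Arabidopsis from anther development, had 3 contigs, as did AT3G62930 and AT3G62950. AT2G47880 had 2 contigs, and AT1G03020 and AT4G33040 had 1 contig each. The CC class was also the one with the most listed genes without a contig, 14 of 21.

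Peroxiredoxins were represented by 6 of the 10 listed genes, with 26 contigs. AT1G48130 (PER1), the 1-cysteine peroxiredoxin that is known mainly from seeds, had 10 contigs. Of these, 9 came by name from the first Trinity assembly and 1 from CLC. AT5G06290, the plastid 2-cysteine peroxiredoxin B, had 6 contigs. AT3G26060 (ATPRX), placed by the list as peroxiredoxin Q of plastids, had 4 contigs. Of the type II peroxiredoxins, AT1G65980 (TPX1, thioredoxin-dependent peroxidase 1) had 3 contigs, AT3G52960 had 2 contigs and AT3G06050 (PRXIIF), the mitochondrial form, had 1 contig. The descriptions of TPX1, ATPRX and AT3G52960 name thioredoxin and not peroxiredoxin.

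Ascorbate peroxidases were the family with the most contigs per gene among the listed families, with 36 contigs on 6 genes and a median of 5 contigs. AT4G35000 (APX3), the form bound to peroxisomes, had 13 contigs, 2 of them from CLC, 8 from the first and 3 from the second Trinity assembly. AT1G77490 (TAPX), the thylakoid form, had 8 contigs. Of the cytosolic forms, AT1G07890 (APX1), the main one in Arabidopsis, had 6 contigs, and AT3G09640 (APX2), induced by heat and strong light in Arabidopsis, had 4 contigs. AT4G32320 (APX6), which the list placed with the cytosolic forms, also had 4 contigs. AT4G09010 (APX4, TL29), a protein of the thylakoid lumen that is a member by its description, had 1 contig. Whether it acts as a peroxidase was not examined here. By the compartments of the list, which were not checked here, cytosol, peroxisome and plastid were each represented, with 14, 13 and 9 contigs.

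**Figure D2:**
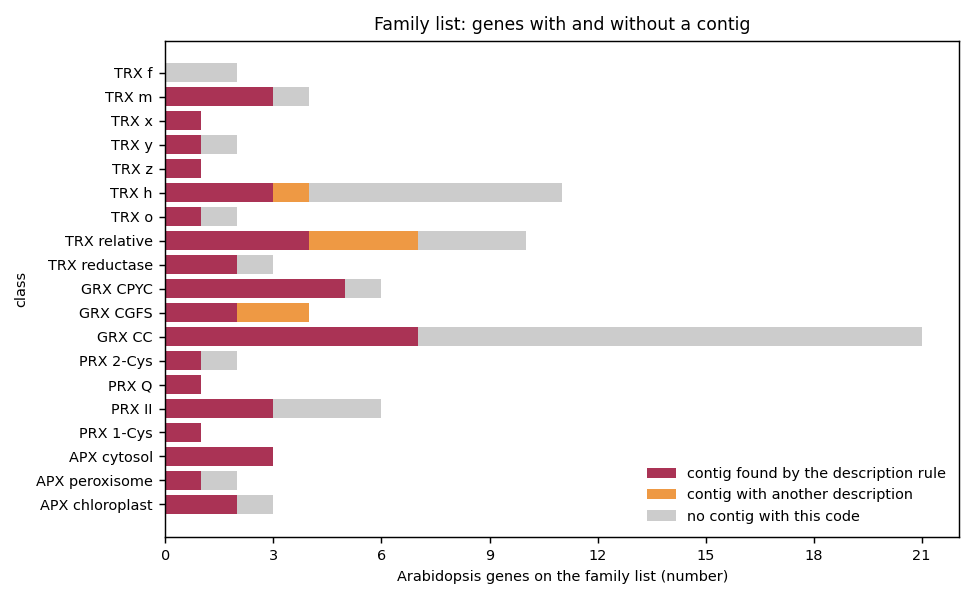
Number of genes on the family list (x axis) by class, split into genes found by the description rule, genes with a contig under another description and genes without a contig. Of the 85 genes, 48 have a contig, and the longest grey bar is that of the CC glutaredoxins with 14 genes.

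Of the 85 genes on the list, 48 (56.5%) had a contig, 42 of them under a description that the rule found. The remaining 6 genes had 14 contigs under other names. They were AT1G60420 with 5 contigs, described as a DC1 domain-containing protein, AT1G11530 (CXXS1) with 3 contigs, AT4G31240 with 2 contigs, described as a protein kinase C-like zinc finger protein, AT3G54900 (CXIP1) with 2 contigs, AT2G38270 (CXIP2) with 1 contig and AT1G76080 (CDSP32) with 1 contig. CXIP1 and CXIP2 are glutaredoxins of the CGFS class, so that all 4 genes of this class had a contig. By family, contigs were found for 11 of the 23 classical thioredoxins, 16 of 31 glutaredoxins, 6 of 10 peroxiredoxins and 6 of 8 ascorbate peroxidases. They were also found for 7 of 10 thioredoxin relatives and 2 of 3 thioredoxin reductases of the NADPH route. A listed gene without a contig is not shown to be missing in willow. The table gives at most 1 code for each contig, and only 64173 of the 86843 contigs have a code. Willow sequences close to several Arabidopsis genes can stand under only 1 of them.

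Other genes of the same pathways were looked up by code. Both glutathione reductases had contigs, AT3G24170 (GR1) 5 contigs and AT3G54660 (GR) 8 contigs. Monodehydroascorbate reductases, which recycle ascorbate, had contigs for 3 of 5 genes (10 contigs), and dehydroascorbate reductases for 2 of 3 genes (5 contigs). Of the glutathione peroxidase-type enzymes, which in plants use thioredoxin, 5 of 8 genes had contigs (20 contigs), led by AT4G11600 (GPX6) with 8 contigs. Methionine sulfoxide reductases, which repair oxidised proteins with electrons from thioredoxin, had contigs for 4 of 8 genes (12 contigs). No contig carried the code listed for sulfiredoxin, which reactivates overoxidised 2-cysteine peroxiredoxins. Of the 27 pathway genes other than the ferredoxin–thioredoxin reductase, 16 (59.3%) had a contig, against 56.5% of the family list.

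**Figure D3:**
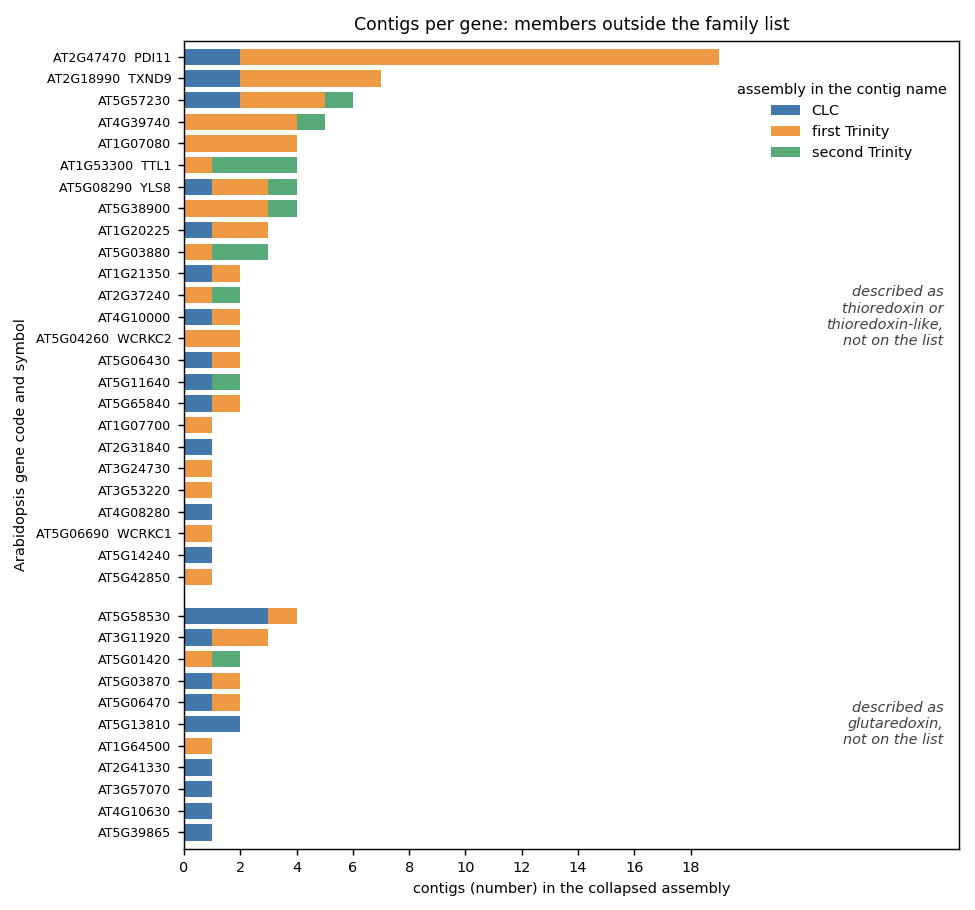
Contigs (number, x axis) of each of the 36 member genes that are neither on the family list nor subunits of ferredoxin–thioredoxin reductase, with the assembly named in the contig shown by colour. PDI11 stands apart with 19 contigs, against at most 7 contigs for any other gene.

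The description rule also found 36 genes with 101 contigs that were neither on the family list nor subunits of ferredoxin–thioredoxin reductase. AT2G47470 (PDI11, also listed as ATPDIL2-1 and UNE5) is a protein disulfide isomerase of the endoplasmic reticulum, where it helps to form disulfide bonds rather than to reduce them. Its 19 contigs were 2 CLC contigs and 17 contigs of the first Trinity assembly, and 276 of the 13764 genes with a code had more contigs. AT2G18990 (TXND9) had 7 contigs. AT5G08290 (YLS8), a subunit of the splicing machinery with a thioredoxin-like fold, had 4 contigs, and AT3G24730, with the same description, had 1 contig. AT1G53300 (TTL1), a tetratricopeptide protein tied to osmotic stress responses in Arabidopsis, had 4 contigs, 3 of them from the second Trinity assembly.

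Among the genes described only by family, AT5G57230 had 6 contigs, AT4G39740 had 5 contigs, and AT1G07080 and AT5G38900 had 4 contigs each. AT1G20225 and AT5G03880 had 3 contigs each. A group of 11 genes was described as glutaredoxin but was not on the list, with 20 contigs and at most 4 contigs per gene. AT5G58530 led this group with 4 contigs, followed by AT3G11920 with 3 contigs. In this group, 12 of the 20 contigs (60.0%) had a name assigned to CLC, and 5 genes had a single contig.

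Contigs of the same gene differed in how they were spread over Trinity genes, the sets of transcripts to which Trinity gives a common gene name. The 200 Trinity contigs among the members lay in 156 Trinity genes, and 27 of these held more than 1 contig of a gene. Ascorbate peroxidases were gathered most, with 21 of 30 Trinity contigs (70.0%) on such Trinity genes. The first Trinity assembly held 5 contigs of TAPX on 1 Trinity gene (T_V1_DN108132_c0_g1), all 4 contigs of APX6 on T_V1_DN104245_c1_g1 and all 3 Trinity contigs of APX2 on T_V1_DN103963_c0_g3. The 4 Trinity contigs of APX1, in contrast, lay on 4 Trinity genes, and the 11 of APX3 on 7.

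Peroxiredoxins were spread more widely, with 3 of 22 Trinity contigs (13.6%) on a shared Trinity gene. All 3 belonged to PER1, whose 9 Trinity contigs lay on 7 Trinity genes, while the 5 of AT5G06290 lay on 5 and the 4 of ATPRX on 4. Thioredoxins were also dispersed, with 7 of 29 Trinity contigs (24.1%) on shared Trinity genes. Listed glutaredoxins had 6 of 26 (23.1%) and the glutaredoxins outside the list 0 of 8. The share was 49.0% among all contigs with a code. In the related families it was 62.4% for class III and other peroxidases, 45.7% for glutathione S-transferases and 27.0% for superoxide dismutases and catalases. The 7 Trinity contigs of ATTRX (AT3G51030) lay on 7 Trinity genes and the 6 of TRX-M4 on 6, whereas the 8 of TH9 lay on 4. The 17 Trinity contigs of PDI11 lay on 14 Trinity genes, of which 1 held 4 contigs. For ACHT4, 5 of 7 Trinity contigs lay on 1 Trinity gene (T_V1_DN110174_c4_g1). The table holds no sequences or lengths, so that splice forms, gene copies and fragments cannot be told apart.

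No Trinity component, taken as all names of an assembly with the same DN number, held contigs of more than 1 member gene, among 150 components. Within the related families, contigs of more than 1 gene of the family shared a component in 2 of 62 components of the glutathione S-transferases, 1 of 30 of the superoxide dismutases and catalases and 2 of 48 of the class III and other peroxidases. A contig with another code, of any kind, was present in 20 components of the members (13.3%), and 12.6% of all components with a code held more than 1 gene. The component of 1 PDI11 contig also held AT5G60640, described as PDI-like 1-4, a related isomerase. On the level of Trinity genes, 4 of 156 held another code. These were, by member, TRX z (AT3G06730) with a disease resistance protein, TRX-Y1 with a SET domain-containing protein, WCRKC2 with pumilio 2, and AT5G40370 with AT3G27770, which has no description. These genes were named because they are the full set of such cases.

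A few transcripts had more than 1 coding sequence left in the table. There were 4 such transcripts with a member, holding 9 coding sequences, of which 5 were members. On CLC transcript 11610, a coding sequence matched to TRXH2 stood next to one matched to AT1G10350, described as a DNAJ heat shock family protein, and to one without a code. On the Trinity transcript T_V1_DN97084_c0_g1_i1, both coding sequences were matched to AT1G20225, so that 1 transcript counts as 2 contigs there. The 2 other transcripts held a member beside a coding sequence without a code, AT2G31840 on CLC transcript 11271 and FTRA2 on CLC transcript 6642.

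**Figure D4:**
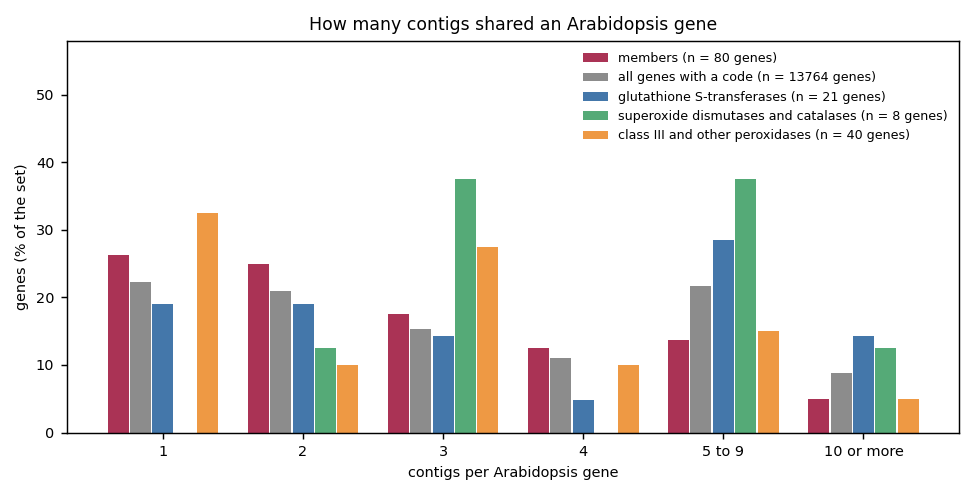
Share of genes (% of each set, y axis) by number of contigs per gene (x axis) for the members, all genes with a code and 3 related families. Among the members, 13.8% have 5 to 9 contigs and 5.00% have 10 or more contigs, against 21.8% and 8.74% of all genes.

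The median was 2 contigs for the 80 member genes and 3 contigs for all 13764 genes with a code, and the mean was 3.35 against 4.66 contigs. The medians were equal (2 and 2) when Trinity genes were counted in place of contigs, with each CLC transcript kept as 1 unit. They were also equal within CLC and within the second Trinity assembly (1 and 1 in each). When descriptions that hold superfamily were dropped from the members only, the member median was 3, against 3 for all genes unfiltered. The lower value was also not shared by all families. The median was 5 for the ascorbate peroxidases, 4 for the thioredoxin relatives, 3.5 for the peroxiredoxins and 3 for the thioredoxins, against 2.5 for the listed glutaredoxins and 2 each for the reductases and for both groups outside the list. More than 1 contig was listed for 73.8% of the member genes and for 77.7% of all genes. At least 10 contigs were listed for 4 member genes (5.00%) and for 8.74% of all genes. Of 3 related families, glutathione S-transferases (118 contigs, 21 genes) and class III and other peroxidases (148 contigs, 40 genes) had a median of 3, and superoxide dismutases and catalases (47 contigs, 8 genes) a median of 5. Superoxide dismutases and catalases had no gene with a single contig, against 26.3% of the member genes and 22.3% of all genes. This share was 32.5% for class III and other peroxidases and 19.0% for glutathione S-transferases. These values are descriptions over genes, which are not replicates, and no difference between the sets was tested.

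**Figure D5:**
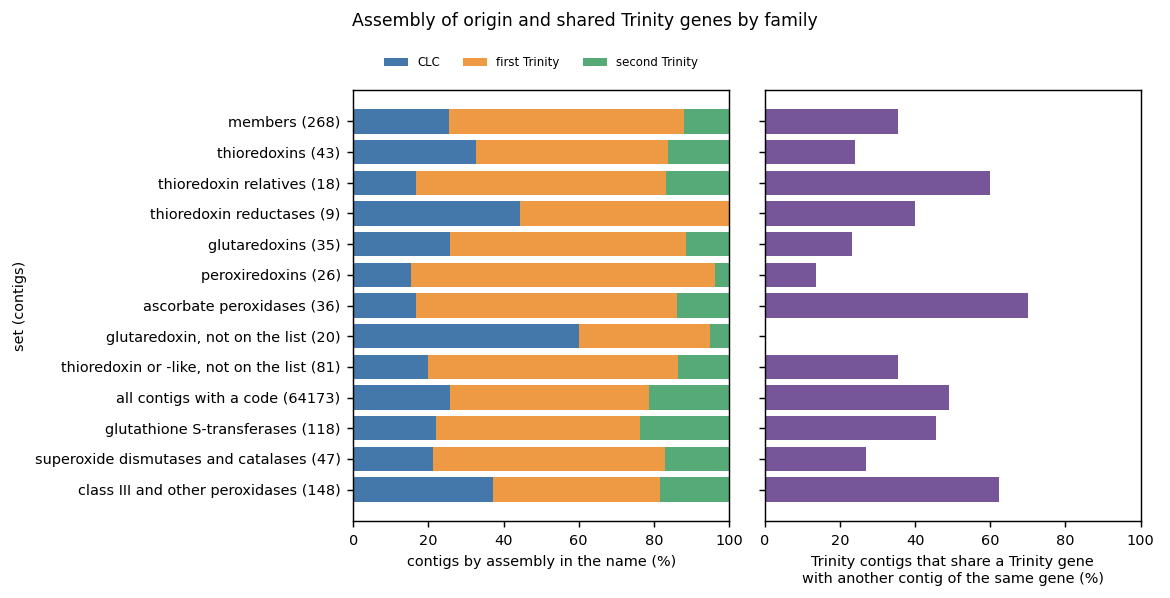
Left, share of contigs (%, x axis) by the assembly in their name, for the members, their families, all contigs with a code and 3 related families, with the number of contigs in brackets. Right, share of Trinity contigs (%) that share a Trinity gene with another contig of the same Arabidopsis gene, which is 70.0% for the ascorbate peroxidases and 13.6% for the peroxiredoxins.

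By name, 168 member contigs (62.7%) came from the first Trinity assembly, 68 (25.4%) from CLC and 32 (11.9%) from the second Trinity assembly. Among all contigs with a code, these shares were 52.9%, 25.8% and 21.4%. Names of the second Trinity assembly thus took a smaller share among the members, which ranged from 0 of 9 contigs in the reductases and 1 of 26 (3.85%) in the peroxiredoxins to 16.7% in the thioredoxin relatives. Contigs with names of all 3 assemblies were listed for 10 member genes (12.5%), against 25.9% of all genes. Among the thioredoxins, 4 of 10 genes were of this kind, among the peroxiredoxins 0 of 6. Since similar sequences were collapsed, a name shows which assembly gave the sequence that was kept, and not which assemblies had built it. Of the Trinity contigs, 35.5% shared a Trinity gene with another contig of the same Arabidopsis gene among the members, and 49.0% among all contigs with a code.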

How the data were processed

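Total RNA of *S. viminalis* roots was sequenced in 12 libraries, 3 per group. The authors assembled the trimmed reads with CLC Genomics Workbench and Trinity, and the merged sequences were reduced with TransDecoder, which predicts coding regions, and cd-hit-est, which collapses similar sequences. The resulting contigs were matched to the annotated transcriptome of *S. purpurea*. The deposited table holds names and text in 5 columns, and no value per library. The authors' comparisons with edgeR (v. 3.28.1) used read counts, which were not analysed here, so that depth is unknown and CT, CC, MT and MC were not compared.

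Contigs, parent transcripts and Arabidopsis genes (code without its suffix) were counted. Contig names gave the Trinity gene and component. The prefixes T_V1 and T_V2 were read as a first and a second Trinity assembly, and all names without a Trinity prefix were assigned to CLC. The members and lists were chosen with earlier results of these data known. Named were all listed family genes with a contig and, outside the list, the 10 member genes with the most contigs, ties included. Other genes were named after their values were seen. Listed genes without a contig were given as counts per class. The related families were found by description. The counting was tested on simulated data. Counts were made with pandas (v. 2.3.3), intervals with SciPy (v. 1.17.1) and plots with matplotlib (v. 3.10.9), all in Python (v. 3.11.15). Sequences were not analysed here.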

Additional observations from a re-analysis of the deposited data

How the results depend on the processing

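Counting was repeated with parent transcripts, Trinity genes or gene models as the unit, within single assemblies, and with a narrower and a wider rule. With Trinity genes as the unit, each CLC transcript was kept as 1 unit. A count or median was taken as changed beyond 1.5 times, and a share outside the 95% binomial interval (Wilson) of its main value. Within the first Trinity assembly there were 168 member contigs, 0.495% of the contigs with a code, and 50.0% of the member genes had more than 1 contig. Within the second Trinity assembly there were 32 contigs (0.234%) of 22 genes, with a median of 1 contig per gene and 31.8% of genes with more than 1. Within CLC there were 68 contigs of 52 genes, with a median of 1 and 26.9% of genes with more than 1. A single assembly holds fewer contigs by construction. In the same 3 settings, 62.8%, 47.5% and 37.0% of all genes with a code had more than 1 contig. Without the descriptions that hold superfamily, 52 genes were left and the share of contigs fell to 0.310%. All other values stayed within these limits. With the listed codes added whatever their description, 282 contigs of 86 genes were counted. With Trinity genes in place of contigs there were 224 units, made up of 156 Trinity genes and 68 CLC transcripts. The median per gene was lower for the members than for all genes with contigs (2 against 3), parent transcripts (2 against 3), gene models (2 against 3), the listed codes added (2 against 3) and the first Trinity assembly (1.5 against 2). It was equal with Trinity genes (2), within the second Trinity assembly (1) and within CLC (1). When superfamily descriptions were dropped from the members only, the member median was 3, against 3 for all genes unfiltered. No paired analysis was possible because per-library values were absent from the annotation, and no library was left out for that reason. The numbers depend on how far the authors collapsed similar sequences, and each contig carries 1 Arabidopsis code at most.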
